A study of Canis lupus familiaris with 58 samples.

Results

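Lymph node tumours from dogs with diffuse large B-cell lymphoma (DLBCL, a fast-growing B-cell tumour) were chosen by their measured PKIA level, and the 10 nodes with the highest level were set against the 10 with the lowest. These 20 nodes came from 32 DLBCL nodes in a series of 58 tumours, 1 array per dog. Of the PKIA probe sets, the brighter on average over the arrays was used. All samples of the series were pre-treatment biopsies of B-cell lymphoma from client-owned pet dogs. The series further held 7 lymph nodes with marginal zone lymphoma (MZL) and 19 fine needle aspirates of unknown diagnosis, which the ranking did not use. The PKIA-high and PKIA-low nodes shared species, tissue, pathologist's diagnosis and untreated state, and the labels used here gave no age, sex or breed. For most dogs they gave the status of IGHV, the variable gene of the antibody heavy chain, whose mutation is static or ongoing, a progression-free survival (PFS) time and an overall survival (OS) time, in a time unit that was not stated. Expression was measured on Affymetrix canine arrays as log2 values.

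PKIA encodes the alpha form of the heat-stable protein kinase inhibitor. This small protein binds the free catalytic subunit of cAMP-dependent protein kinase (PKA) as a pseudosubstrate, blocks its activity and carries it out of the nucleus. PKA itself is held inactive by regulatory subunits, which let go of the catalytic subunits when cAMP binds, and in lymphocytes cAMP signalling is known mainly as a brake on antigen receptor signals and growth.

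PKIA levels differed widely among the nodes. PKIA in the PKIA-high nodes was lowest at 9.96 (Dog 21), had a median of 11.12 and was highest at 11.97 (Dog 8). In the PKIA-low nodes it was lowest at 4.50 (Dog 7), had a median of 4.83 and was highest at 5.98 (Dog 39). The group means were 11.07 ± 0.63 and 5.10 ± 0.52 (SD, n = 10 each), a 62.6-fold gap that the choice of groups made and that carries no test. Within its own array, PKIA stood at the 78.8th to 95.2nd percentile of all genes in PKIA-high nodes and at the 3.03rd to 19.6th percentile in PKIA-low nodes.

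The limits of the groups were arbitrary. The first node outside the PKIA-high group had 9.95 (Dog 11), just under the 9.96 of the last node inside. The first node outside the PKIA-low group had 6.63 (Dog 22), against 5.98 inside. The 12 nodes in between averaged 8.62 ± 1.21, and the widest step between neighbours in the ranking, 0.995, lay among them, between 8.07 and 7.08. A second PKIA probe set read 8.30 ± 0.81 in PKIA-high and 4.12 ± 0.14 in PKIA-low nodes. Ranking by that probe set kept 9 of the 10 PKIA-high and 10 of the 10 PKIA-low nodes.

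The wide range of PKIA was found in the other specimens too. The 19 aspirates averaged 8.96 ± 2.42 and ran from 4.89 to 11.76, with 10 of them above the lowest PKIA-high node and 5 below the highest PKIA-low node. The 7 MZL nodes averaged 7.56 ± 2.81 and ran from 4.93 to 11.59, with 2 and 3 nodes beyond the same limits. The plot of PKIA by dog shows all 58 values.

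**Figure D1:**
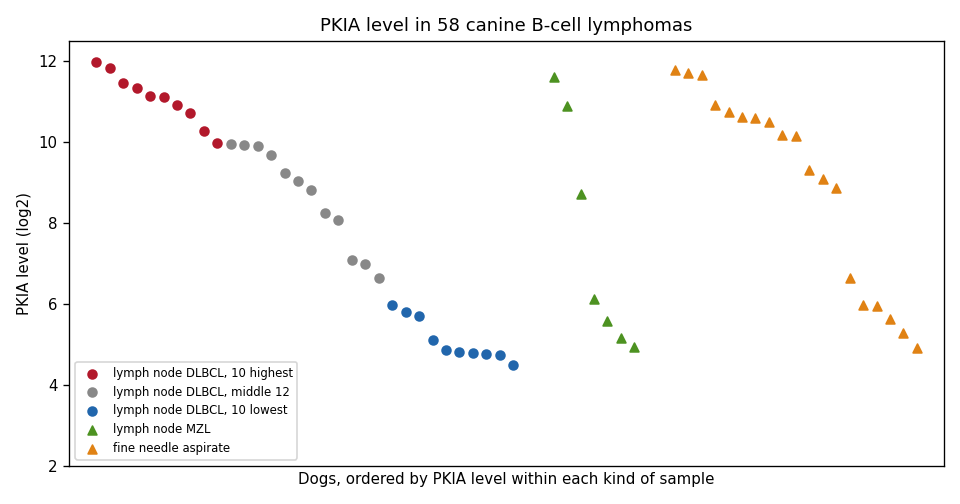
PKIA log2 level in each dog, with PKIA-high, middle and PKIA-low DLBCL nodes, MZL nodes and aspirates set apart. Each point is 1 dog. PKIA-high nodes lie between 9.96 and 11.97 and PKIA-low nodes between 4.50 and 5.98, by the choice of groups, and the aspirates span nearly the same range.

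Both groups carried the RNA of B-cell tumours. MS4A1, the CD20 antigen of B cells, was 12.74 ± 0.50 in PKIA-high and 12.80 ± 0.64 in PKIA-low nodes. CD79B, a chain of the B-cell receptor, was 10.85 ± 1.21 in PKIA-high and 11.06 ± 1.04 in PKIA-low nodes (n = 10 each). The 3' minus 5' difference of control probe sets, which grows as RNA degrades, was 0.768 ± 0.211 in PKIA-high and 0.716 ± 0.263 in PKIA-low nodes, and the mean correlation with the other arrays was 0.972 and 0.968. Array medians of all 58 dogs lay between 7.08 and 7.20, and with 10 dogs a group the number of arrays sets the precision.

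No gene passed the threshold between the groups. Each of the other 15114 genes was tested with limma and Benjamini-Hochberg adjustment, and 0 had an adjusted p under 0.05 (percent called 0), with 0.124 as the smallest. At an unadjusted p under 0.05 there were 1488 genes (9.85%), 706 of them higher (4.67%) and 782 lower (5.17%) in PKIA-high nodes. A rank-sum test also called 0 genes, with 1224 at an unadjusted p under 0.05. Taken over all genes, 42.2% had a higher mean in PKIA-high nodes and the median difference was -0.02. The genes below are the 10 with the smallest p in each direction, leaving out genes known only by a LOC number, and their values are descriptions of these 20 nodes.

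Among the 10 genes with the smallest p on the higher side, the gap was widest for CLEC12A, FRY and SESTD1. CLEC12A, an inhibitory C-type lectin receptor best known on myeloid cells, had a lowest value of 9.59, a median of 11.38 and a highest of 12.84 in PKIA-high nodes, against 5.79, 8.47 and 10.71 in PKIA-low nodes. It was 2.96 ± 0.56 (SE) higher, a 7.81-fold gap (limma adjusted p = 0.124), and 7 PKIA-high nodes lay above every PKIA-low node. FRY, a large scaffold protein that binds NDR kinases and microtubules, ran 8.78, 9.38 and 10.34 (lowest, median, highest) in PKIA-high nodes, against 5.41, 7.79 and 9.07 in PKIA-low nodes. It was 2.13 ± 0.43 higher (limma adjusted p = 0.124), and here 8 PKIA-high nodes lay above the whole PKIA-low group. SESTD1, a phospholipid-binding protein, ran 7.15, 7.90 and 9.17 in PKIA-high nodes and 5.13, 6.52 and 7.32 in PKIA-low nodes, a difference of 1.51 ± 0.29. In bulk samples, fewer cells of a type and less RNA per cell cannot be told apart for any of these genes.

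Smaller gaps with narrow spread made up the rest of the higher side. PBX3, a homeodomain transcription factor that partners HOX proteins, had the smallest p: its lowest, median and highest values were 8.92, 9.46 and 10.18 in PKIA-high nodes, against 8.15, 8.56 and 9.25 in PKIA-low nodes, a difference of 0.83 ± 0.15. MALT1, a protease that takes part in antigen receptor signalling, ran 8.47, 8.81 and 9.69 in PKIA-high nodes and 7.75, 8.29 and 8.54 in PKIA-low nodes, a difference of 0.68 ± 0.14 (limma adjusted p = 0.124). For PBX3 and MALT1 alike, 8 PKIA-high nodes lay above all PKIA-low nodes and the ranges overlapped. ACVR2A, a type II activin receptor, was 1.02 ± 0.19 higher. ZNF711, an X-linked zinc finger transcription factor, was 1.23 ± 0.24 higher, and its level in PKIA-low nodes, 3.60 to 4.36, was near the bottom of the scale. MBD5, a protein with a methyl-CpG-binding domain, was 1.05 ± 0.21 higher. STRADB, a pseudokinase partner of the kinase LKB1, was 0.60 ± 0.12 higher, and STK38L, an NDR kinase, 0.49 ± 0.10 higher, both with a limma adjusted p of 0.128.

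Among the 10 genes with the smallest p on the lower side, the gap was widest for SHTN1, MSRB1 and ITM2B. SHTN1 encodes shootin 1, known for its role in axon formation. Its lowest, median and highest values were 4.94, 5.41 and 6.85 in PKIA-high nodes, against 5.41, 7.96 and 9.40 in PKIA-low nodes, a difference of -2.0 ± 0.46 (limma adjusted p = 0.212). The PKIA-high nodes sat together near the bottom of the scale, apart from Dog 14 at 6.85, while the PKIA-low nodes were spread widely. MSRB1, a selenoprotein that repairs oxidised methionine, ran 7.86, 8.69 and 9.91 in PKIA-high nodes and 8.63, 9.80 and 10.92 in PKIA-low nodes, a difference of -1.12 ± 0.27. ITM2B, a membrane protein whose human gene is mutated in familial dementias, ran 10.49, 10.82 and 12.02 in PKIA-high nodes and 10.72, 11.96 and 12.51 in PKIA-low nodes, a difference of -0.88 ± 0.21. Both groups overlapped for each of these genes, with 5 PKIA-high nodes below every PKIA-low node.

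The other 7 genes on the lower side differed by less than 1 on the log2 scale. UBE2G2, a ubiquitin-conjugating enzyme of the endoplasmic reticulum degradation pathway, differed by -0.61 ± 0.15, and MRPL39, a protein of the mitochondrial ribosome, by -0.57 ± 0.15. MVB12A, a subunit of the ESCRT-I sorting complex, differed by -0.52 ± 0.11, and RRP1, a ribosomal RNA processing factor, by -0.39 ± 0.09. TMC8, a transmembrane channel-like protein, differed by -0.34 ± 0.07 and had the smallest p of these 10 genes (limma adjusted p = 0.128). FAM78B differed by -0.25 ± 0.06 and TSKU, a secreted leucine-rich repeat protein, by -0.24 ± 0.06. Of all 15114 genes, 1 had groups that did not overlap (0.00662%). It was TASOR, a subunit of the HUSH gene-silencing complex, named after its values were seen. It ran from 10.80 to 12.19 in PKIA-high nodes and from 10.20 to 10.77 in PKIA-low nodes, a difference of 0.59 ± 0.14 (limma adjusted p = 0.228).

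**Figure D2:**
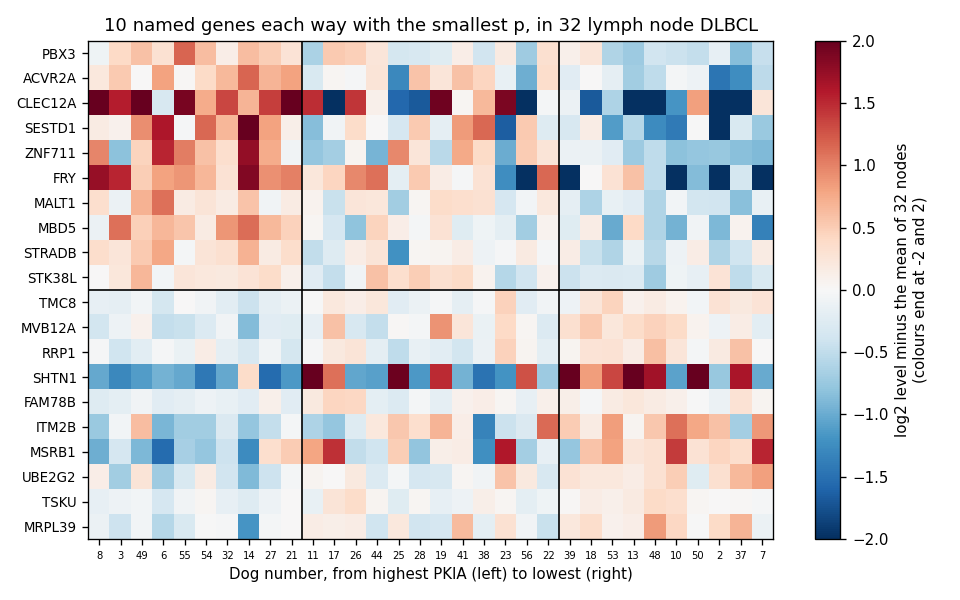
Log2 level of the 10 genes with the smallest p in each direction, without LOC numbers (rows) in the 32 DLBCL nodes (columns, from highest PKIA at left to lowest at right), as colour relative to each gene's mean over the nodes. Vertical lines part the 10 PKIA-high, 12 middle and 10 PKIA-low nodes. CLEC12A, FRY and SHTN1 have the strongest colours, and single dogs break the pattern in each of them.

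A wider gap was seen in an immunoglobulin-type segment, LOC607467, which the gene table annotates as a V segment. It was also named after its values were seen. Its lowest, median and highest values were 7.34, 8.18 and 11.15 in PKIA-high nodes, against 8.45, 13.96 and 14.48 in PKIA-low nodes, a difference of -3.91 ± 0.79 (limma adjusted p = 0.124). The PKIA-low median was close to the highest value of any feature, 15.11. With all probe sets of each gene averaged, the difference was -1.29 and passed the threshold (limma adjusted p = 0.00654). Probe sets of V segments can share sequence with other segments, so which segment was measured is uncertain.

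The 19 aspirates, none of which chose the groups, gave a separate reading of the same genes. Across aspirates the slope on PKIA was tested for every gene, and 0 of 15114 passed with limma (percent called 0, smallest adjusted p 0.413), with 1028 at an unadjusted p under 0.05 (6.80%: 2.98% rising and 3.82% falling with PKIA). For these 20 genes, 10 in each direction in nodes, the aspirate slope had the sign of the node difference in 20 of 20, against 67.9% of all genes, where 42.8% of slopes were above 0. That of FAM78B, -0.00071, was next to 0 and its sign turned with averaged probe sets. An unadjusted p under 0.05 in aspirates was reached by 10 of these 20, 5 on each side, against 6.80% of all genes.

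FRY had the clearest slope in aspirates. It was 0.29 ± 0.06 per log2 unit of PKIA (limma p = 0.000106, adjusted p = 0.413). In the 10 aspirates with PKIA at or above the lowest PKIA-high node FRY had a lowest value of 8.68, a median of 9.38 and a highest of 10.53, against 6.81, 7.46 and 9.23 in the 5 aspirates at or below the highest PKIA-low node. These ranges overlapped between 8.68 and 9.23. RRP1 had a slope of -0.09 (limma p = 0.00175), ACVR2A 0.12 (p = 0.0065), MALT1 0.10 (p = 0.00681), SHTN1 -0.27 (p = 0.0076) and ITM2B -0.16 (p = 0.00794), none past the adjusted threshold. PBX3 and CLEC12A, prominent in nodes, had aspirate slopes of 0.03 (limma p = 0.57) and 0.20 (p = 0.251). The slopes in nodes and aspirates were also compared for every gene, and 0 differed after adjustment with limma, with 246 at an unadjusted p under 0.05.

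**Figure D3:**
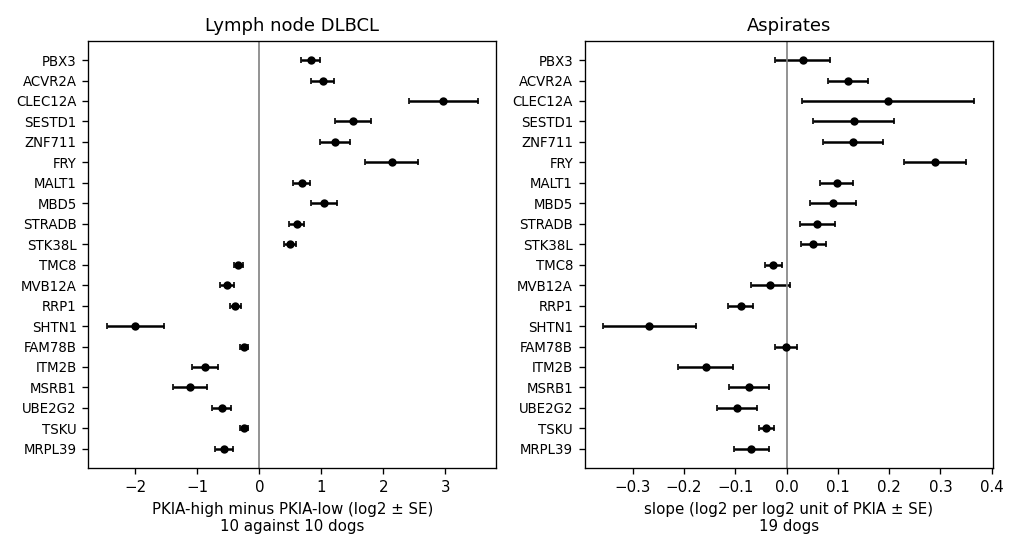
Node difference (left, PKIA-high minus PKIA-low, log2) and aspirate slope (right, log2 per log2 unit of PKIA) for the 10 genes in each direction with the smallest p in nodes, without LOC numbers. Bars are standard errors. Every gene lies on the same side of 0 in both panels, FRY has the steepest rising aspirate slope at 0.29 and SHTN1 the steepest falling one at -0.27.

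The genes most like PKIA over all 32 DLBCL nodes, by Pearson's r and given as a description, were FRY at 0.70, DNAJC25, a co-chaperone, at 0.66, TRIM44 at 0.66, PBX3 at 0.65 and MBD5 at 0.65. Spearman's rho for FRY was 0.72, and without the 2 nodes farthest from the median of PKIA its r was 0.68. These nodes include the 20 that defined the groups.

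Within the PKA system itself, 1 of 6 measured subunits had an unadjusted p under 0.05, against 9.85% of all genes. PRKAR2B, the type II beta regulatory subunit that holds the catalytic subunits inactive, had a lowest value of 7.69, a median of 10.04 and a highest of 11.21 in PKIA-high nodes, against 5.89, 7.26 and 10.97 in PKIA-low nodes. It was 1.95 ± 0.65 higher (unadjusted p = 0.00687, limma adjusted p = 0.342), the groups overlapped over most of their range, and its aspirate slope was 0.15 (p = 0.0619). The catalytic subunits differed little: PRKACA by -0.11 ± 0.09, PRKACB by 0.38 ± 0.30 and PRKX, a related kinase, by -0.17 ± 0.12. The other regulatory subunits measured, PRKAR1A and PRKAR1B, differed by 0.01 ± 0.13 and 0.10 ± 0.07, and PKIG, the gamma form of the inhibitor, by 0.03 ± 0.07. PKIB and PRKAR2A were not named on the array annotation used here.

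The wider cAMP pathway was mixed. Of 13 measured A-kinase anchoring proteins, which tether PKA in the cell, 2 were higher and 1 lower at an unadjusted p under 0.05, against 4.67% and 5.17% of all genes: AKAP1 by 0.45, AKAP7 by 0.27 and AKAP8L by -0.28. Of 20 genes of cAMP synthesis and its receptors, the germinal centre receptor S1PR2 differed by -0.47 ± 0.20 and the receptor P2RY10 by 0.42 ± 0.16. None of 9 phosphodiesterases and exporters, which end the signal, reached an unadjusted p under 0.05. Of 19 CREB factors and cAMP targets, CREBBP, a co-activator of CREB, was higher by 0.33 and NR4A2, an immediate early nuclear receptor, by 0.35, while RGS1, a brake on G-protein signals, differed by -1.18 ± 0.52. Of 5 other cAMP effectors the small GTPase RAP1A differed by 0.24 ± 0.10. No member of these lists passed after adjustment, and their median differences lay between -0.02 and 0.07.

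The genes next to PKIA on chromosome 29 did not share its range. Of the 5 measured neighbours on each side, in gene order of the UU_Cfam_GSD_1.0 assembly, PEX2 differed by 0.23 ± 0.13 and ZC2HC1A by 0.27 ± 0.12, the gene on either flank. ZC2HC1A alone among the 10 had an unadjusted p under 0.05 (0.0415, limma adjusted p = 0.488), a share near the 9.85% of all genes. IL7, the cytokine, differed by 0.36 ± 0.26 and HEY1, a Notch target, by 0.24 ± 0.29. The other 6 differed by between -0.12 and 0.05.

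Among markers of cells other than the tumour cells, those of cytotoxic cells had the lowest median difference of the 32 lists. Of 14 measured cytotoxic cell genes, 13 had a lower and 1 a higher mean in PKIA-high nodes, with a median difference of -0.52, against 42.2% higher and a median of -0.02 over all genes. At an unadjusted p under 0.05, 5 of the 14 were lower, against 5.17% of all genes: the granzymes GZMB (-1.33 ± 0.49) and GZMK (-1.07 ± 0.50), the chemokine CCL5 (-1.23 ± 0.50), the transcription factor EOMES (-0.52 ± 0.22) and CST7 (-0.44 ± 0.17). GZMB had a lowest value of 4.92, a median of 5.87 and a highest of 7.95 in PKIA-high nodes, against 5.71, 6.94 and 10.13 in PKIA-low nodes. The mean over the list had a median of 6.80 in PKIA-high and 7.23 in PKIA-low nodes, with ranges of 6.43 to 7.57 and 6.72 to 8.68 that overlapped. In aspirates 9 of the 14 had a falling slope on PKIA, against 57.2% of all genes. At an unadjusted p under 0.05, 0 of the 14 were falling and 1 was rising, against 3.82% and 2.98% of all genes.

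Genes of the stroma that organises lymphoid tissue had more lower than higher members. Of 11 follicular dendritic and reticular stroma genes, 10 had a lower mean in PKIA-high nodes (median -0.22), against 57.8% of all genes. At an unadjusted p under 0.05, 3 of the 11 were lower, against 5.17% of all genes: the chemokines CCL21 (-0.55 ± 0.15), CCL19 (-0.39 ± 0.16) and CXCL13 (-0.89 ± 0.40). CCL21, which draws T cells and dendritic cells into nodes, ran from 7.28 to 8.20 in PKIA-high nodes and from 7.58 to 8.83 in PKIA-low nodes (limma adjusted p = 0.291). Of 19 fibroblast and matrix genes 18 were lower, against 57.8% of all genes, with COL1A2 at -0.76 ± 0.28. The exception was FBN1, the microfibril protein fibrillin 1, at 1.76 ± 0.61. In aspirates 10 of the 11 stroma genes and 16 of the 19 matrix genes had a falling slope, against 57.2% of all genes. At an unadjusted p under 0.05, 1 gene of each list was falling, against 3.82% of all genes. Of 19 macrophage genes 13 were lower in PKIA-high nodes, a share near that of all genes. At an unadjusted p under 0.05, 2 of them were lower, TYROBP and SLC11A1, against 5.17% of all genes. In aspirates 12 of the 19 macrophage genes had a falling slope, against 57.2% of all genes. At an unadjusted p under 0.05, 5 of them were falling, against 3.82% of all genes, and 0 were rising. Of 24 T-cell genes 18 were lower in PKIA-high nodes, against 57.8% of all genes, with a median of -0.05. At an unadjusted p under 0.05, 0 of them were lower and 1 was higher, against 5.17% and 4.67% of all genes. The higher one was CD3G, a chain of the T-cell receptor complex, at 1.71 ± 0.52, while CD3E differed by 0.03 ± 0.13. In aspirates 21 of the 24 T-cell genes had a rising slope, against 42.8% of all genes, 3 of them at an unadjusted p under 0.05, against 2.98%. No member of these lists passed after adjustment, and the part that the share of such cells had in the other differences was not tested.

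In programs of the tumour cells no gene passed after adjustment. Of 33 proliferation genes 26 had a lower mean in PKIA-high nodes (median -0.21), against 57.8% of all genes, with PLK1, a mitotic kinase, at -0.75 ± 0.31 and GINS2, a replication factor, at -0.44 ± 0.16. In aspirates 31 of the 33 had a falling slope, against 57.2% of all genes, 3 of them at an unadjusted p under 0.05, against 3.82%. Of 13 germinal centre genes 8 had a lower mean, a share near the 57.8% of all genes. At an unadjusted p under 0.05, 4 of the 13 were lower, against 5.17% of all genes: S1PR2, RGS13, ELL3 and MEF2B. RGS13 shows how such a mean can rest on a few dogs: it ran from 3.49 to 3.91 in PKIA-high nodes and from 3.56 to 11.47 in PKIA-low nodes, but the medians were 3.81 and 3.92. BCL6, the master regulator of the germinal centre, differed by 0.15 ± 0.39 in nodes, and its aspirate slope was 0.15 (limma p = 0.00818). In aspirates 7 of the 13 germinal centre genes had a rising slope, against 42.8% of all genes. At an unadjusted p under 0.05, 2 of them were rising, against 2.98% of all genes, and 0 falling. Of the 4 genes lower in PKIA-high nodes, S1PR2 and RGS13 had aspirate slopes of -0.07 (limma p = 0.0767) and -0.33 (p = 0.0602). Those of ELL3 and MEF2B were 0.01 (limma p = 0.86) and 0.02 (p = 0.13). None of the 11 B-cell genes, 15 genes of activated B-cell-like DLBCL or 12 BCL2 family genes reached an unadjusted p under 0.05.

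Antigen receptor signalling and its targets held a few genes on each side. Of 14 B-cell receptor signalling genes 10 were higher (median 0.13), against 42.2% of all genes. At an unadjusted p under 0.05, 1 was higher and 1 lower, against 4.67% and 5.17% of all genes. The higher one was MALT1. The lower one was DAPP1, an adaptor downstream of PI3 kinase, at -0.58 ± 0.24, with an aspirate slope of 0.08 (limma p = 0.208). Of 15 NF-kB targets 7 were higher, a share near that of all genes. BIRC3, an inhibitor of apoptosis, ran 11.68, 12.40 and 13.12 in PKIA-high nodes and 10.11, 11.73 and 12.46 in PKIA-low nodes, a difference of 0.89 ± 0.28 (limma adjusted p = 0.332), with an aspirate slope of 0.13 (unadjusted p = 0.00516). The chemokine CCL4 went the other way, at -1.24 ± 0.55. Of 14 hypoxia and glycolysis genes 10 were lower, against 57.8% of all genes. At an unadjusted p under 0.05, 3 of the 14 were lower, against 5.17% of all genes. They were ALDOA, a glycolytic aldolase, at -0.63 ± 0.16, PGK1 at -0.29 ± 0.10 and NDRG1 at -0.29 ± 0.10. ALDOA ran from 10.94 to 12.22 in PKIA-high nodes and from 12.00 to 13.15 in PKIA-low nodes, and its aspirate slope was -0.08 (p = 0.00233). In all, 10 of the 32 lists had no member at an unadjusted p under 0.05.

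RRP1, UBE2G2 and MRPL39, among the 10 genes on the lower side, lie on chromosome 31, which led to a look at all genes by chromosome after these values were seen. Of 141 measured genes on chromosome 31, 114 had a lower and 27 a higher mean in PKIA-high nodes, with a median difference of -0.10. At an unadjusted p under 0.05, 32 of them (22.7%) were lower and 3 (2.13%) higher. On the other 38 chromosomes the share of lower genes ran from 0.763% to 8.82%. In aspirates, 24 of the 141 (17.0%) had a falling and 0 a rising slope on PKIA at an unadjusted p under 0.05, and the share falling on the other chromosomes ran from 1.14% to 7.09%. Of the 32 genes lower in nodes, 30 had a falling slope in aspirates, 13 of them at an unadjusted p under 0.05. No test was made of this group of genes, since the values chose it. On the higher side in nodes the largest share at that threshold was on chromosome 19, which holds ACVR2A and MBD5. There 17 of 126 genes (13.5%) were higher, against 4.67% of all genes, and 3.17% were rising in aspirates, against 2.98%. The largest share rising in aspirates was on chromosome 13, 10.4%, where 3.81% of genes were higher in nodes. These shares were not tested either.

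Some of the chromosome 31 genes lower in PKIA-high nodes at an unadjusted p under 0.05 serve as examples. PSMG1, a proteasome assembly chaperone, was 11.06 in PKIA-high and 11.52 in PKIA-low nodes, and ATP5PO, a subunit of mitochondrial ATP synthase, was 12.58 and 13.03. SOD1, the superoxide dismutase of the cytosol, was 11.99 in PKIA-high and 12.57 in PKIA-low nodes, and U2AF1, a splicing factor, was 12.84 and 13.23. Averaged over the 141 genes as the deviation from each gene's mean, PKIA-high nodes had -0.04 ± 0.06 and PKIA-low nodes 0.11 ± 0.14 (SD, n = 10 each). This deviation was below 0 in 9 of 10 PKIA-high nodes and above 0 in 8 of 10 PKIA-low nodes. The 12 middle nodes had -0.02 ± 0.08, with 8 of them below 0, so a value below 0 was not particular to PKIA-high nodes. Dog 52, an aspirate with a PKIA level of 6.65 between the limits, had -0.13. Dog 37 stood far above the rest of the PKIA-low group at 0.41, and without it the mean was 0.08 ± 0.10 (n = 9). The mean deviation was below 0 in 10 of the 10 aspirates at or above the PKIA-high limit and above 0 in 5 of the 5 at or below the PKIA-low limit. In MZL nodes it was below 0 in 2 of the 2 at or above the PKIA-high limit and above 0 in 2 of the 3 at or below the PKIA-low limit, the other having -0.13.

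**Figure D4:**
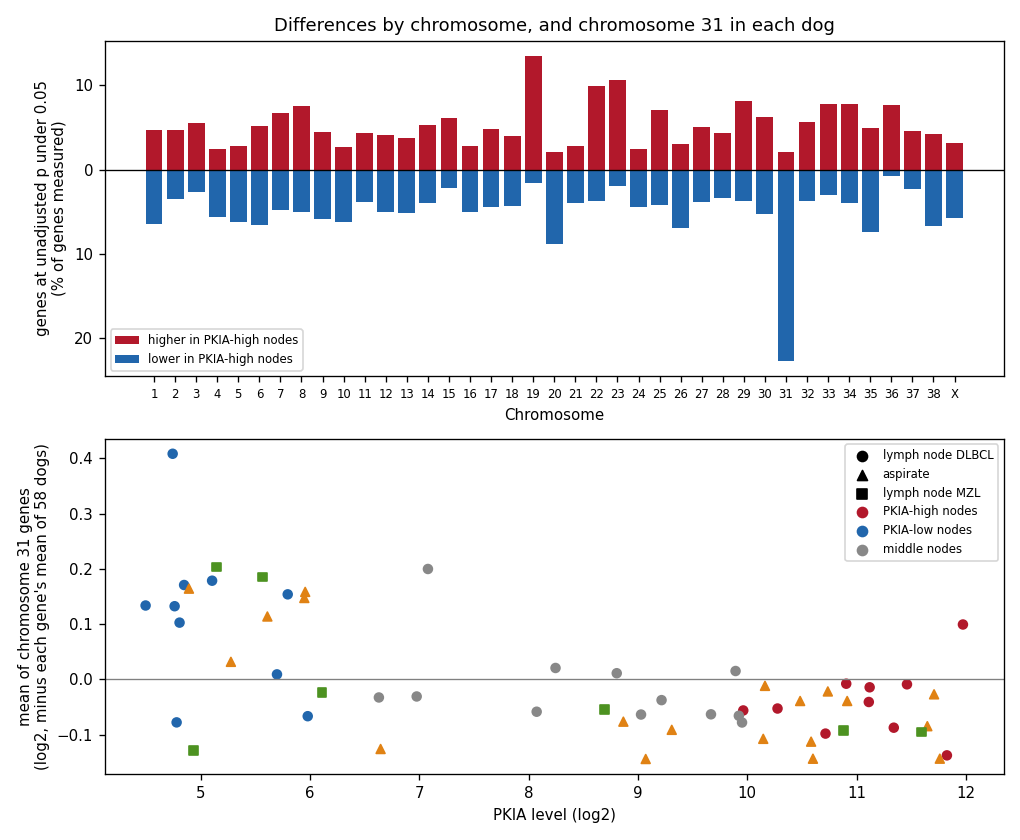
Top, percent of genes on each chromosome that were higher (upward bars) or lower (downward bars) in PKIA-high nodes at an unadjusted p under 0.05. Bottom, mean log2 deviation of chromosome 31 genes in each of the 58 dogs against its PKIA log2 level. Chromosome 31 holds the highest share of lower genes, 22.7%. Its mean deviation is below 0 in 9 of 10 PKIA-high and 8 of 12 middle nodes, and above 0 in 8 of 10 PKIA-low nodes.

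The mutation status of IGHV, which marks whether the tumour's antibody gene goes on mutating as in a germinal centre, was split in the same way in both groups. It was static in 5 of 10 PKIA-high and in 5 of 10 PKIA-low nodes (odds ratio 1, 95% interval 0.126 to 7.94, Fisher's exact p = 1, two-sided). Counts of this size leave a wide interval. Over all DLBCL nodes with a known status, PKIA averaged 8.21 ± 2.46 in static (n = 18) and 8.29 ± 2.97 in ongoing nodes (n = 12), with a two-sided permutation p of 0.933. In aspirates it averaged 8.78 ± 3.12 in static (n = 7) and 9.29 ± 2.00 in ongoing samples (n = 11), with a two-sided exact permutation p of 0.656.

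The dogs with PKIA-high nodes had lower hazards of progression and of death than those with PKIA-low nodes. In PKIA-high dogs the PFS times were 60, 102, 123, 210, 285, 288, 372, 386, 545 and, without an event, 1023 units. In PKIA-low dogs they were 24, 58, 93, 142, 158, 174, 178, 202, 206 and 357 units, an event in each. The ranges overlapped, but 5 PKIA-high dogs went beyond 285 units and 1 PKIA-low dog did. The Kaplan-Meier median was 286.5 in PKIA-high and 166 in PKIA-low dogs, and the hazard ratio was 0.295 (95% interval 0.101 to 0.859, exact log-rank p = 0.0276, two-sided).

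Overall survival differed to a similar degree. There were 6 deaths among 10 PKIA-high dogs and 9 among 10 PKIA-low dogs, with observed times of 90 to 1023 units in PKIA-high and 71 to 552 units in PKIA-low dogs. The Kaplan-Meier median was 505 in PKIA-high and 194 in PKIA-low dogs, and the hazard ratio was 0.287 (0.0923 to 0.894, exact log-rank p = 0.0289, two-sided). Adjusted over the 2 outcomes both p-values were 0.0289. This adjustment does not cover the choice of groups by PKIA, which was made with earlier results of these data known. PFS and OS come from the same dogs and are no separate support for each other. A fit over all DLBCL nodes with an outcome reuses these dogs and is no separate support either. With PKIA as a continuous value over the 30 DLBCL nodes with an outcome, the hazard ratio per log2 unit was 0.825 (0.704 to 0.965, permutation p = 0.0166) for PFS and 0.813 (0.688 to 0.961, permutation p = 0.0146) for OS.

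These outcome differences were close to the threshold. With the groups ranked by the second PKIA probe set, in which 1 PKIA-high dog changed, the hazard ratio was 0.357 for PFS (exact p = 0.0627) and 0.387 for OS (exact p = 0.0833). Leaving out any one of Dogs 49, 6, 55 and 54, all PKIA-high, took the PFS p to 0.0562 with a hazard ratio of 0.345. Leaving out Dog 49, 55 or 54 took the OS p to between 0.0553 and 0.0563 with a hazard ratio of 0.333. Without Dog 13, the PKIA-low dog with the longest times, the hazard ratios were 0.180 for PFS and 0.143 for OS.

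**Figure D5:**
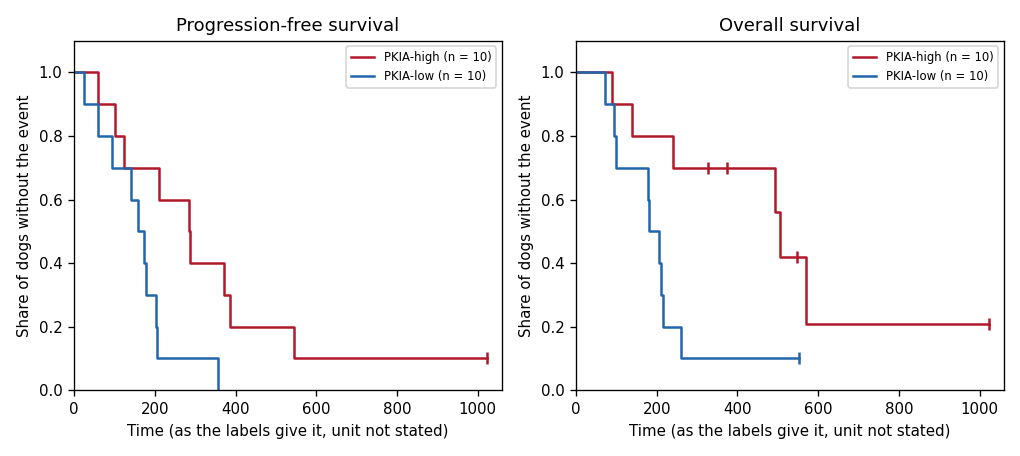
Kaplan-Meier curves of progression-free and overall survival for dogs with PKIA-high and PKIA-low nodes, 10 each, with time in the units of the labels. Ticks mark dogs without an event. The PKIA-high curve lies above the PKIA-low curve for most of the time in both panels, with medians of 286.5 against 166 for progression and 505 against 194 for death.

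In the 19 aspirates PKIA did not track outcome beyond the spread between dogs. The hazard ratio per log2 unit of PKIA was 1.11 for PFS (0.882 to 1.39, permutation p = 0.386) and 1.03 for OS (0.810 to 1.31, permutation p = 0.798). The node and aspirate hazard ratios were compared directly. The ratio of node to aspirate was 0.744 for PFS (0.564 to 0.982, permutation p = 0.0749, 10000 permutations) and 0.788 for OS (0.587 to 1.06, permutation p = 0.180). By the permutation p, a difference between nodes and aspirates did not pass the threshold. The intervals come from the Cox fit and the p from permuted specimen labels. For PFS they disagree, since that interval leaves out equal hazard ratios. The aspirates' diagnosis was unknown, and the treatment the dogs received after sampling was not used here.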

How the data were processed

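Tumour RNA was labelled with biotin and hybridised to canine Affymetrix arrays, per the labels. The deposited table holds log2 values for 43035 probe sets and 58 arrays, which the authors obtained by RMA in the Affymetrix Expression Console, per the submitters' processing notes. Their versions, and any scan date or batch, are not given in the sources used here, so a batch effect was not tested. The deposited values run from 2.82 to 15.11 with 0 missing. Of the probe sets, 29254 carried 1 gene symbol in the platform annotation, 13231 none, 439 more than 1, and 111 were controls. Each of 15115 genes was read from its probe set with the highest mean. Gene order and chromosomes came from RefSeq (UU_Cfam_GSD_1.0). The build behind the array is not given, and no sequence or coordinate was used.

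With 1 sample per dog, the tests measure spread between dogs. The groups, gene lists and tests were chosen with earlier results of these data known. Genes were tested with limma 3.58.1 in R 4.3.3 (lmFit and default eBayes, two-sided, Benjamini-Hochberg over 15114 genes, threshold 0.05). PKIA was left out, since it chose the groups. The test was checked on simulated data with known changes. Survival used survival 3.8.3 with exact enumeration of the groups or 100000 permutations. An outcome indicator of 1 was read as an event. Python 3.11.15 and matplotlib 3.10.9 drew the figures. Named genes were the 10 with the smallest p each way among genes without a LOC symbol, since fewer than 5 passed, with the measured PKI and PKA genes, the 5 neighbours on each side of PKIA, the 5 genes with the highest r with PKIA and preset single genes. List members are named where their unadjusted p was under 0.05. Of the list members, 79 entries had no probe set named here. Alternatives changed the test, the group size, the probe sets, a filter on dim genes, IGHV status as a covariate, the variance model and each dog in turn.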

Additional observations from a re-analysis of the deposited data

Results flagged for a closer look

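A dog far from the rest of its group was found in 9 of 100 groups looked at, and chance gives about 1 in 20. All are log2 levels. Dog 14, a PKIA-high node, stood apart in 3 genes. Its SHTN1 was 6.85, against 4.94 to 5.53 in the other PKIA-high nodes. Its MRPL39 was 10.72, against 11.33 to 11.90, and its PRKAR1B was 7.61, against 6.97 to 7.19. Dog 32, also PKIA-high, stood apart in PI15 at 5.62, against 4.90 to 5.28, and in CD3E at 10.19, against 9.08 to 9.58. Dog 27, PKIA-high, had FAM78B at 5.62, against 5.26 to 5.44. In PKIA-low nodes, Dog 39 had PRKAR1B at 6.70, against 7.01 to 7.22 in the others, and Dog 13 had STMN2 at 6.17, against 5.39 to 5.74. Dog 37, PKIA-low, had a mean deviation of chromosome 31 genes of 0.41, against -0.08 to 0.18 in the other PKIA-low nodes.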

How the results depend on the processing

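No paired analysis was possible because each dog gave 1 sample and no number is shared between groups. The 20 genes chosen by smallest p, 10 in each direction, kept the sign of their node difference in 597 of 597 values, each of 1 gene under 1 alternative. This was nearly fixed in advance and is no separate support. The genes were chosen by their p in these nodes, and the alternatives reuse most of the same arrays. The rank-sum test changes only the p and repeats the main difference. The count of genes past the threshold, 0, was 2 with 8 nodes a side (MSRB1 -1.53, PBX3 0.98, limma adjusted p = 0.0382 each), 1 with PKIA as a continuous value over 32 nodes (FRY, 0.36 per log2 unit, adjusted p = 0.0469, but 0 genes and a smallest adjusted p of 0.0664 without the node of lowest RNA integrity), 1 with probe sets averaged (LOC607467) and 0 to 1 with any one node left out (ZNF711 1.39 without Dog 3, adjusted p = 0.0158). In aspirates it was 0 to 1 with any one left out (LRIF1 0.18 without Dog 35, adjusted p = 0.00743). Counts at an unadjusted p under 0.05 ran from 1018 to 1818 in nodes and from 683 to 1392 in aspirates. Hazard ratios with any one dog left out ran from 0.180 to 0.345 for PFS (exact p 0.01 to 0.0562) and from 0.143 to 0.333 for OS (exact p 0.00326 to 0.0563). With the second PKIA probe set they were 0.357 and 0.387, and no longer past the threshold. With 8 dogs a side they were 0.236 and 0.267, with 16 a side 0.350 and 0.331, and within IGHV status 0.328 and 0.212, all past it. In aspirates the OS hazard ratio ran from 0.957 to 1.11 and the PKIA difference, static minus ongoing, from -1.0 to 0.135 with any one left out, and that difference was 0.29 with the second probe set. Differences near 0 changed sign. With 8 nodes a side PRKAR1A was -0.103, ZFHX4 -0.0158 and CD3E -0.0457. With 16 a side PRKAR1A was -0.0077, ZFHX4 -0.0393 and MS4A1 0.509. With PKIA continuous PRKAR1A was -0.0003, MS4A1 0.0489 and CD3E -0.0015, and over the 31 nodes without the one of lowest RNA integrity, an alternative chosen after seeing the data, -0.0002, 0.0487 and -0.0014. With probe sets averaged PRKAR1A was -0.0645, PRKAR1B -0.0230, PI15 0.0252 and the FAM78B aspirate slope 0.0143. With the second PKIA probe set MS4A1 was 0.0092 and CD14 0.0072. With any one dog left out CD14 ran from -0.0924 to 0.0402, CD3E from -0.0597 to 0.0712, MRPS28 from -0.0642 to 0.0260, MS4A1 from -0.184 to 0.0465, PKIG from -0.0070 to 0.0668, PRKAR1A from -0.0451 to 0.0610 and the FAM78B aspirate slope from -0.0108 to 0.0080. The cause of these changes was not tested. The array with the largest 3' minus 5' difference among nodes was in neither group, so the planned comparison without it left the 20 nodes as they were.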

Other observations

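Other gene groups, compared in the same way between PKIA-high and PKIA-low nodes, gave no member past the threshold after adjustment with limma. Of 9 plasma cell genes 8 had a lower mean in PKIA-high nodes, against 57.8% of all genes, 2 of them at an unadjusted p under 0.05, against 5.17%: PRDM1, the regulator of plasma cell fate, at -0.36 ± 0.10 and DERL3, a protein of the endoplasmic reticulum, at -0.40 ± 0.16. In aspirates 8 of the 9 plasma cell genes had a falling slope, against 57.2% of all genes, with none at an unadjusted p under 0.05. The PRDM1 slope there was 0.00075 (limma p = 0.973). Of 24 MYC targets 15 were higher, against 42.2% of all genes, with nucleolin (NCL) at 0.19 ± 0.07. MYC itself differed by 0.24 ± 0.22. In aspirates 20 of the 24 MYC targets had a falling slope, against 57.2% of all genes. Of 22 interferon genes 9 were higher, a share near that of all genes, with none at an unadjusted p under 0.05. In aspirates 20 of the 22 had a falling slope on PKIA, against 57.2% of all genes. At an unadjusted p under 0.05, 6 of them were falling, against 3.82% of all genes. Of 13 MHC class II genes 7 were higher and of 11 naive and marginal zone B-cell genes 6, against 42.2% of all genes. None of them had an unadjusted p under 0.05.

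Markers of tissues around a node also had no member past the adjusted threshold. For comparison, 57.8% of all genes had a lower mean in PKIA-high nodes, and 5.17% were lower at an unadjusted p under 0.05. Of 19 endothelial and mural genes 13 were lower in PKIA-high nodes, with the smooth muscle myosin MYH11 at -0.44 ± 0.20. In aspirates 17 of these 19 had a falling slope, against 57.2% of all genes. At an unadjusted p under 0.05, 3 of them were falling, against 3.82% of all genes. Of 13 skeletal muscle genes 8 were lower, with MYH7 at -0.17 ± 0.06 and MYLPF at -0.22 ± 0.10. Of 11 granulocyte genes 6 were lower, a share near that of all genes, with LCN2 at -0.37 ± 0.15. In aspirates 10 of the 11 granulocyte genes had a rising slope on PKIA, against 42.8% of all genes. At an unadjusted p under 0.05, 3 of them were rising, against 2.98% of all genes. The epithelial adhesion molecule EPCAM had a lowest value of 5.30, a median of 5.78 and a highest of 8.25 in PKIA-high nodes, against 5.44, 7.48 and 9.77 in PKIA-low nodes, a difference of -1.12 ± 0.48 (unadjusted p = 0.0292). The wide spread of EPCAM lay in both groups, and 4 of the 5 epithelial genes were lower in PKIA-high nodes. GAP43, a neural growth protein, differed by -0.14 ± 0.05. Of 8 adipocyte genes 5 and of 4 erythroid genes 4 were lower, with none at an unadjusted p under 0.05.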
